A study of Mus musculus with 8 samples.

Results

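The solute carrier (SLC) genes were taken by symbol: Slc, a family number, a letter. In the deposited gene tables, 151 of 10690 genes carried such a symbol in at least 1 table, 1 symbol of the pattern being left out by the rule, and 140 of 9875 genes did so in all 3 tables. The remaining members were 7 genes listed in 2 tables and 4 genes (Slc17a6, Slc2a3, Slc2a13 and Slc43a2) listed in 1. RefSeq has 374 protein-coding mouse symbols of the pattern, and 39 of 51 family numbers had a member here. The symbol is a name and not a proof of transport. The pattern also took Slc4a1ap, Slc7a6os and Slc9a3r1, which are named after a carrier but code for other kinds of proteins. The classes below go by family number and include them.

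The cells were NIH3T3, an established line of mouse fibroblasts, kept in DMEM with calf serum. The 4 conditions were nontreated (NT), 250 μM sodium arsenite for 1 h (AS), and the same arsenite treatment followed by 4 h (RC4) or 8 h (RC8) in regular medium without arsenite. Each condition had 1 QuantSeq FWD library, a 3′ end method in which a read lies near the poly(A) site (PAS) of its transcript. The tables hold 2 count columns for each library, and what these stand for is not given in the sources used here. They were added and not taken as replicates, so no difference below has a replicate check or a test, and the intervals given cover counting error only.

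SLC proteins are membrane carriers that move small molecules by facilitated diffusion or by coupling to an ion gradient. They are grouped into numbered families by sequence, and some families are tied to a compartment, such as Slc25 to the inner mitochondrial membrane and Slc35 to the Golgi and endoplasmic reticulum. Arsenite modifies thiols of proteins and sets off the integrated stress response, in which the transcription factor ATF4 activates genes of amino acid supply. Inorganic phosphate carriers are of note because arsenate resembles phosphate, whereas trivalent arsenite does not use that route.

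Levels were read counts per gene, the sum of the deposited columns of a library, per M reads on genes (RPM). Since the method yields about 1 fragment per transcript, levels were not divided by length. Changes are given as log2 ratios relative to the median gene of the same table, and a gene was called at a 2-fold change. The 3 comparisons share the NT library, so any peculiarity of NT enters all of them. The libraries held 22.4 M to 23 M reads on genes. The median gene itself moved by −0.04 (AS), −0.30 (RC4) and 0.01 (RC8) on the log2 scale of RPM. All 7 fibroblast markers were listed in the tables and none of the 6 markers of epithelial, leukocyte and endothelial cells was. The fibroblast markers summed to 14396 RPM in NT, then 15014 (AS), 11495 (RC4) and 8663 (RC8). Most of this was S100a4, with 10276 RPM in NT, then 10867 (AS), 8089 (RC4) and 5715 (RC8). Of the 7 markers 5 were below NT in AS, and 6 were in RC4 and in RC8. Pdgfrb, for example, had 150 RPM in NT, 33.1 in RC4 and 59.5 in RC8. The part of the markers in the changes of the carriers was not tested.

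The share of all reads held by the SLC genes was 0.95% in NT, then 0.924% (AS), 0.904% (RC4) and 0.822% (RC8). Their levels in NT ran from 2.30 to 916 RPM with a median of 28, and 23 members had at least 100 RPM. The mitochondrial carriers of Slc25, with 32 members, were the largest family. Among members of all 3 tables they accounted for 38.9% of the SLC level in NT, then 41.1% (AS), 32.5% (RC4) and 35.5% (RC8). The amino acid carriers followed with 18% in NT, and the zinc and other metal carriers with 14.3%. The most abundant member was Slc25a3, the mitochondrial phosphate carrier, at 916 RPM. Next came the ADP/ATP exchangers Slc25a4 at 793 RPM and Slc25a5 at 689 RPM, and the neutral amino acid carrier Slc38a2 at 338 RPM. These 4 intervals of counting error did not overlap in NT.

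After 1 h of arsenite few carriers had moved. In these bulk libraries fewer cells with a transcript and less of it per cell cannot be told apart. Of 147 members 2 were up at least 2-fold, beside 0.718% of all 10452 genes, and 1 was down, beside 2.93% of all genes. The 2 were Slc16a4, an orphan member of the monocarboxylate family, and Slc45a3, and the 1 was Slc5a3, the sodium/myo-inositol cotransporter. Slc45a3 had few reads, and 1 of its deposited count columns was 0. The median over the members was 0.01, with the middle of the distribution between −0.27 and 0.18, and that of all genes between −0.25 and 0.16.

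In RC4 more members were called. Of 144 members 17 were at least 2-fold up (11.8%) and 3 at least 2-fold down (2.08%), beside 6.38% of all 10081 genes in each direction. The median over the members was −0.05. On the scale of RPM, without setting the median gene to 0, 8 members were up and 16 down. Of all genes 3.69% were up and 13.4% down on that scale, and the median over the members was −0.35. In RC8, 3 of 147 members were up, beside 2.95% of all 10441 genes, and 3 were down, beside 3.59%. The median was then 0.06. Of the 17 members up in RC4, 8 were amino acid carriers.

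**Figure D1:**
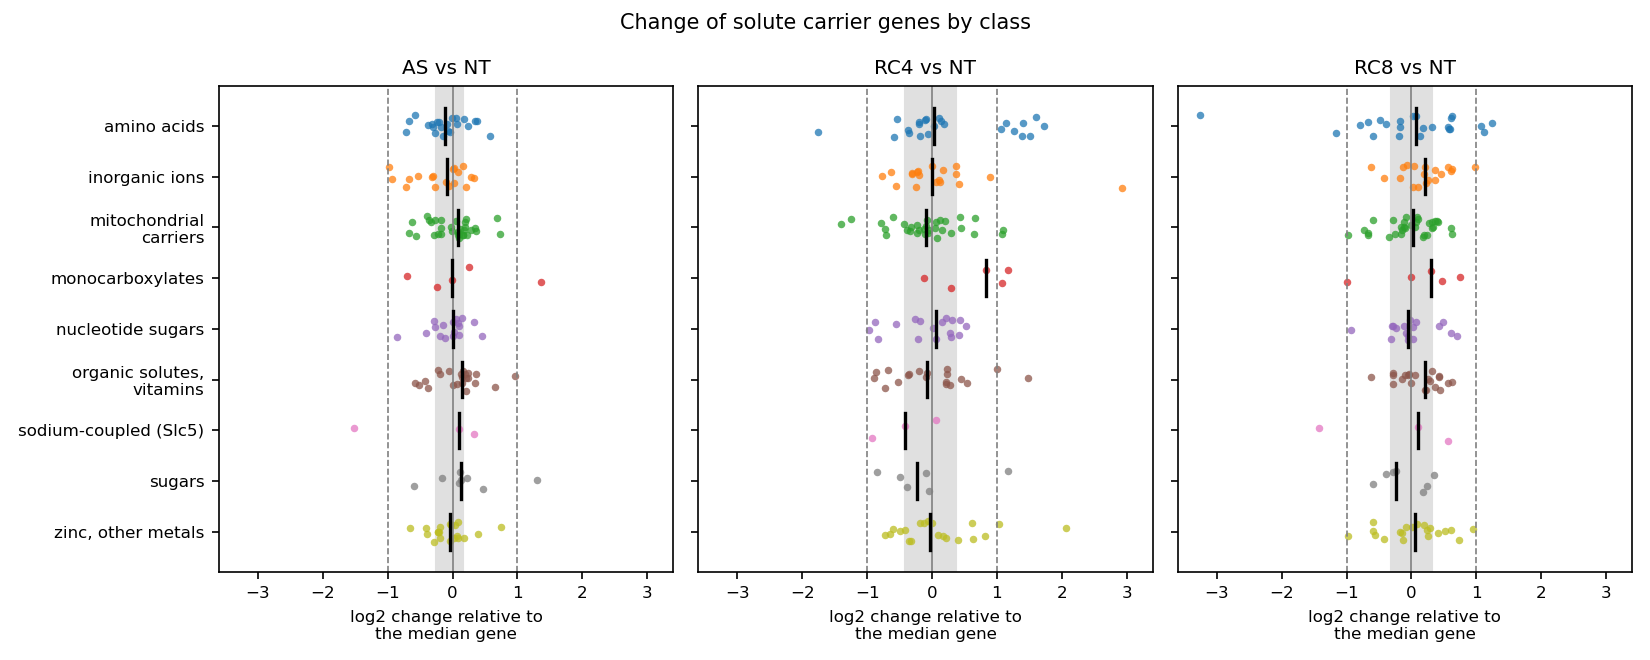
Log2 change relative to the median gene (x axis) of each SLC gene (points) by class (y axis) for AS, RC4 and RC8 against NT. Black bars are class medians, the grey band runs between the quartiles of all genes, dashed lines mark 2-fold, and vertical scatter is arbitrary. In RC4, 8 of 23 genes of the amino acid class lie beyond the right dashed line, and the farthest point is Slc20a1 at 2.93.

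Amino acid carriers and their relatives for taurine and creatine formed the class with the most calls in RC4, 8 of 23 genes up and 1 down, beside 6.38% of all genes in each direction. On the scale of RPM 5 of the 23 were up in RC4 (Slc1a4, Slc3a2, Slc6a8, Slc36a1 and Slc38a7) and 1 down. Of all genes 3.69% were up and 13.4% down on that scale. None of 22 genes of the class had been called in AS. In RC8 3 of 23 were up and 2 down, beside 2.95% and 3.59% of all genes. Slc3a2, the heavy chain that brings several light subunits to the plasma membrane, had 125 RPM in NT, then 181 (AS), 267 (RC4) and 190 (RC8). It was thus higher than NT in all 3 treated libraries, with a peak in RC4 of 1.39 (95% interval 1.33 to 1.46). Its light-chain partner for large neutral amino acids, Slc7a5, had a low level of 8.68 RPM in NT, then 5.66 (AS), 15.7 (RC4) and 7.74 (RC8). Only its RC4 value was above NT.

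Slc1a4, a carrier of alanine, serine and cysteine, had 23.9 RPM in NT, then 20.9 (AS), 64.4 (RC4) and 25.1 (RC8). Slc7a1, which imports arginine and lysine, had 73.2 RPM in NT, then 57.4 (AS), 143 (RC4) and 74.4 (RC8). Both genes were up in RC4, by 1.73 and 1.27, and within 0.07 of NT in RC8. Slc38a1, a system A glutamine carrier, had 82.7 RPM in NT, then 50.7 (AS), 140 (RC4) and 93.8 (RC8). Its RC4 change of 1.06 lay close to the 2-fold limit, with an interval of 0.98 to 1.14.

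A list of amino acid carriers known as ATF4 targets had 8 genes, of which 6 were in the tables. In RC4 4 of the 6 were up (Slc1a4, Slc3a2, Slc7a1 and Slc7a5) and none was down, beside 6.38% of all genes in each direction. The median of the list was 1.2 beside 0 for all genes. On the scale of RPM 2 of the 6 were up, Slc1a4 and Slc3a2, beside 3.69% of all genes. The list median was then 0.90 beside −0.30 for all genes. Slc1a5, a glutamine carrier, and Slc38a2 had changes of 0.11 and 0.03. In AS and in RC8 none of the 6 was called, with medians of −0.08 in both. Slc38a2 had the lowest value of the list in RC8 (−0.79), with 196 RPM against 338 in NT.

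In 3 carriers the level was at least 2-fold up both in RC4 and in RC8. Slc6a8, the creatine carrier, had 32.1 RPM in NT, then 25.9 (AS), 79.5 (RC4) and 70.3 (RC8). Slc36a1, a proton-coupled amino acid carrier found on lysosomes, had 19 RPM in NT, then 15.6 (AS), 40.9 (RC4) and 40.2 (RC8). Slc38a7, a lysosomal glutamine and asparagine carrier, had 5.45 RPM in NT, then 6.86 (AS), 12.6 (RC4) and 12.7 (RC8). These 3 genes were the members called up in RC8, 2.04% of 147, beside 2.95% of all genes. Their values were 1.13, 1.08 and 1.24, after 1.61, 1.40 and 1.51 in RC4. The RC8 values of Slc36a1 and Slc6a8 lay close to the 2-fold limit. In RPM Slc36a1 and Slc38a7 were nearly the same at both recovery times, and Slc6a8 was somewhat lower in RC8. Slc38a9, a lysosomal arginine sensor, was not called in any comparison (−0.07, −0.54 and 0.56).

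**Figure D2:**
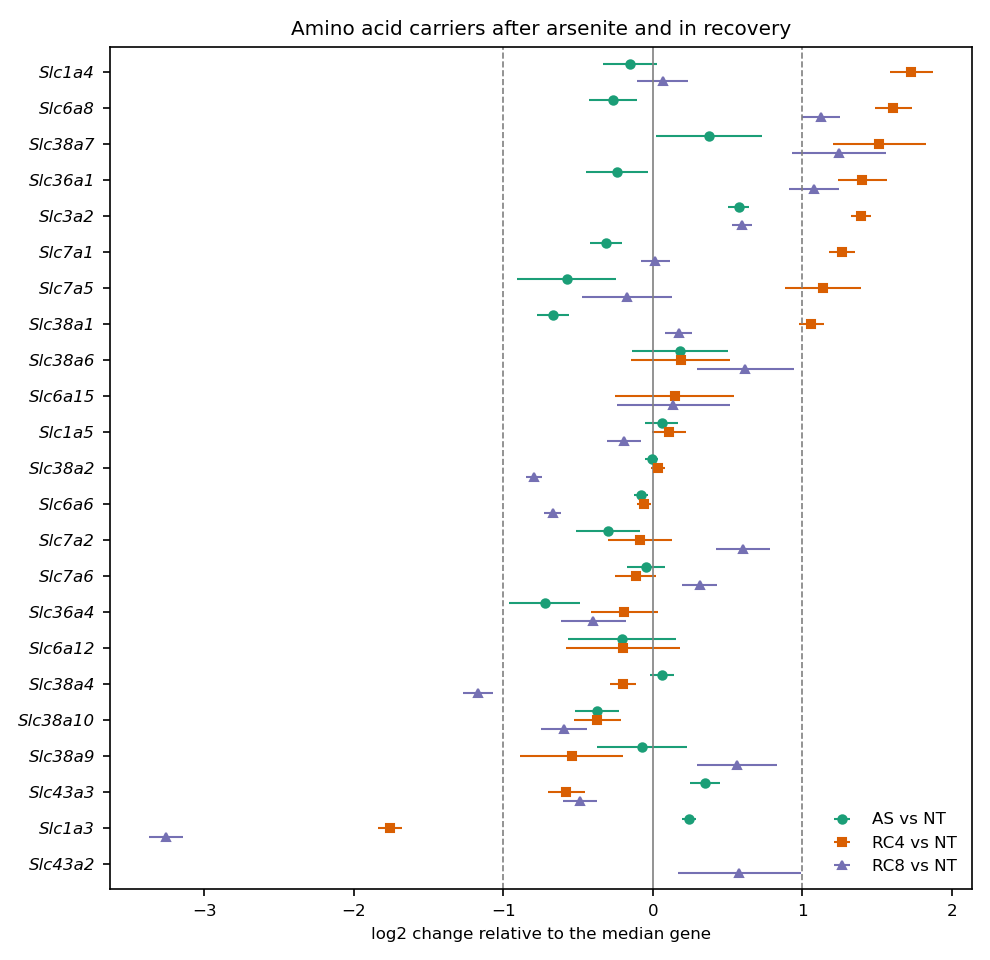
Log2 change relative to the median gene (x axis) of the amino acid carriers (y axis, ordered by the RC4 value) in AS (circles), RC4 (squares) and RC8 (triangles), with 95% counting intervals; dashed lines mark 2-fold. The upper 8 genes are past 2-fold in RC4 and Slc6a8, Slc38a7 and Slc36a1 also in RC8, while Slc1a3 reaches −3.26 in RC8; Slc43a2 was listed in the RC8 table only.

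The opposite course was taken by Slc1a3, a glutamate and aspartate carrier best known from glia. It had 290 RPM in NT, then 333 (AS), 69.4 (RC4) and 30.4 (RC8). Its level relative to the median gene was 3.39-fold lower than NT in RC4 and 9.55-fold lower in RC8, the lowest value of any member in either comparison. The fall concerned both of its PASs alike, since the distal one held 69.2% of the reads in NT, 66.7% in RC4 and 69.3% in RC8. The PASs lie 234 nt apart in the 3′ UTR on the minus strand of chromosome 15 (mm9). They are shown because the distal one has a canonical signal, in capitals, and the proximal one has none. Each string holds the 30 bases that end at the PAS, in the direction of the gene.

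Slc1a3 proximal, chr15:8584358-8584387: tctatttgggaaatacactacagaggttaa
Slc1a3 distal, chr15:8584124-8584153: ttcAATAAAgaaaaaatagttttacattaa

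Slc38a4, a neutral amino acid carrier, was the other amino acid carrier called down in RC8 (−1.17), with 112 RPM in NT, then 114 (AS), 79.4 (RC4) and 50.2 (RC8). The taurine carrier Slc6a6, abundant in NT at 306 RPM, had 193 RPM in RC8 (−0.67). Neither gene was called in AS.

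The largest rise of any member was that of Slc20a1, a sodium-phosphate cotransporter of the plasma membrane. Its level was 131 RPM in NT, then 155 (AS), 811 (RC4) and 201 (RC8). Relative to the median gene it was 7.65-fold above NT in RC4 (log2 2.93, interval 2.88 to 2.99) and 1.53-fold above NT in RC8. Because of this gene, the sum over the 18 genes of the inorganic ion class in all 3 tables went from 834 RPM in NT to 1354 in RC4. Its paralog Slc20a2 had 104 RPM in NT, then 70.2 (AS), 72.8 (RC4) and 92.8 (RC8), and was not called. The PAS of Slc20a1, in the 3′ UTR on the plus strand of chromosome 2 (mm9), carries the signal AATAAA, in capitals, 27 nt upstream.

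Slc20a1, chr2:129037322-129037351: tgAATAAAaagcctacagtttttagaaaaa

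A list drawn up for the entry of arsenic was made of both Slc20 genes and the metal carriers Slc39a8 and Slc39a14. The Slc20 genes carry phosphate, a route that the arsenite used here does not take, and entry was not measured. Slc20a1 was the only one of the 4 called in any comparison. Slc39a8 had 14.9 RPM in NT, then 14 (AS), 9.39 (RC4) and 9.87 (RC8). Slc39a14 had 15.6 RPM in NT, then 13 (AS), 8.12 (RC4) and 14.8 (RC8). Both were low throughout and had RC4 values of −0.32 and −0.64.

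Slc30a1, the zinc exporter of the plasma membrane and a known target of the metal-sensing factor MTF1, was the second highest in RC4. It had 36.3 RPM in NT, then 59.4 (AS), 123 (RC4) and 24.2 (RC8). It was higher than NT already after 1 h of arsenite (0.75, interval 0.63 to 0.88), 4.18-fold higher in RC4 and lower than NT in RC8 (−0.59). Slc39a10, a zinc importer known to be repressed by MTF1, ran the other way, with 39.6 RPM in NT, then 29.3 (AS), 22.8 (RC4) and 76.6 (RC8). Its changes of −0.40, −0.49 and 0.95 did not reach 2-fold. The promoter of Slc30a1, from 250 bases before to 50 after the start (RefSeq, GRCm38.p6), was read for the core of the metal response element, TGCACNC or TGCGCNC on either strand. It held 2 matches, in capitals. The strings are in the direction of the gene, and both matches read as the motif on the opposite strand.

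Slc30a1, chr1:191906727-191906756: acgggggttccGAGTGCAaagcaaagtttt
Slc30a1, chr1:191906800-191906829: gcctccgggccGAGCGCAgtcgccgcggac

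Such a match is common and describes letters only. It was found in 25.7% of all 32851 promoters in the RefSeq table, in 36.4% of those of genes listed here and in 36.7% of the 158 promoters of SLC genes. Of the 17 members up in RC4, 12 had a promoter entry, and 4 of their 14 promoters held it. The antioxidant response element core, TGANNNNGC, was in 43% of the promoters of listed genes and in 50% of those of SLC genes. The amino acid response element, TGATGNAAT, was in 0.362% of the promoters of listed genes and in none of those of SLC genes.

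Among the other metal carriers, Slc41a2, for magnesium, was up in RC4 (1.04) and its paralog Slc41a1 had 52.1 RPM in NT, then 53.9 (AS), 74.5 (RC4) and 87.2 (RC8) without being called. Slc30a4, a vesicular zinc carrier, had 173 RPM in NT, then 108 (AS), 186 (RC4) and 88.3 (RC8). Its RC8 change of −0.98 stayed just inside the limit. The heme carrier Slc48a1 had 230 RPM in NT and 311 in RC8, with changes of 0.06, 0.45 and 0.43. In all, 2 of 20 metal carriers were up in RC4, beside 6.38% of all genes, and none was called in AS or RC8. On the scale of RPM 1 was up in RC4, Slc30a1, and 1 down, beside 3.69% and 13.4% of all genes.

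The glucose carrier Slc2a1 had 188 RPM in NT, then 201 (AS), 343 (RC4) and 144 (RC8), up by 1.17 in RC4. The lactate and pyruvate carrier Slc16a1 had 49.5 RPM in NT, then 40.6 (AS), 49.2 (RC4) and 25 (RC8), with an RC8 value of −0.99. Both genes were below NT in RC8, without reaching 2-fold. Slc2a3 was listed in the AS table only, with 8.28 RPM in NT and 11.2 in AS. Slc16a4 was the highest member in AS, with 16.1 RPM in NT, then 40.2 (AS), 27.7 (RC4) and 22.3 (RC8). The only PAS listed for Slc16a4 lies in an intron, in each comparison. Its relative Slc16a10, a carrier of aromatic amino acids, was instead lower in AS (−0.70) and up in RC4 (1.18). Slc23a1, an ascorbate carrier, was up by 1.48 in RC4 from few reads (56 in NT), with a deposited count column at 0.

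Slc5a3 had 110 RPM in NT, then 37.2 (AS), 67.1 (RC4) and 41 (RC8). It was 2.88-fold lower in AS and 2.69-fold lower in RC8, and its change in RC4 was −0.41. The distal PAS listed for it was also listed for Mrps6, a gene of the same locus that codes for a mitochondrial ribosomal protein. Mrps6 had 19415 reads in NT against 2483 of Slc5a3, and its own changes were 0.11, 0.00 and −0.85. How the reads were divided between the 2 genes was not tested.

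**Figure D3:**
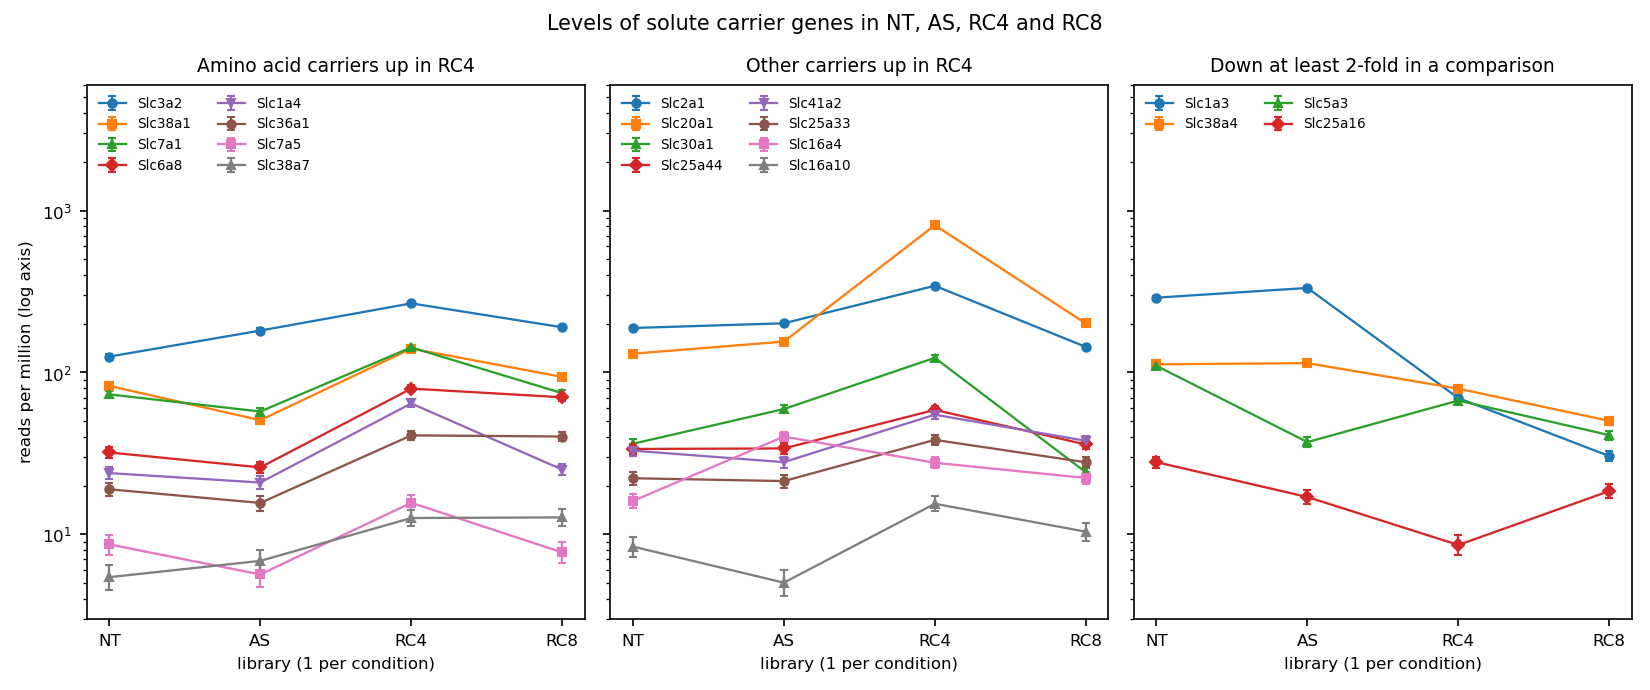
Levels in RPM (log axis) in the 4 libraries (x axis), with 95% counting intervals, for amino acid carriers up in RC4 (left), other carriers up in RC4 with no count column at 0 (middle) and named carriers at least 2-fold down in 1 comparison or more (right). Most curves on the left and in the middle peak in RC4, Slc20a1 at 811, while Slc1a3 drops from 290 in NT to 30.4 in RC8.

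The mitochondrial carriers were mostly near the median gene, with class medians of 0.09, −0.09 and 0.02. In RC4 2 of 32 were up and 2 down, beside 6.38% of all genes in each direction. None was called in AS or RC8. On the scale of RPM none was up in RC4 and 5 were down, beside 3.69% and 13.4% of all genes. The pair up in RC4 was Slc25a44, for branched-chain amino acids, at 1.1 and Slc25a33, for pyrimidine nucleotides, at 1.09. Slc25a16 was down at −1.40. It had 27.9 RPM in NT, then 17 (AS), 8.60 (RC4) and 18.5 (RC8). Its trough was thus in RC4.

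The 5 abundant housekeeping carriers of the list had no call. Slc25a3 had 916 RPM in NT, then 995 (AS), 911 (RC4) and 823 (RC8). The ADP/ATP exchangers went lower, Slc25a4 to 481 RPM in RC8 (−0.73) and Slc25a5 to 351 RPM (−0.98). The oxoglutarate carrier Slc25a11 had an RC8 value of −0.67, whereas the citrate carrier Slc25a1 had 0.32. RefSeq also lists the pseudogenes Slc25a5-ps and Slc39a1-ps, and reads shared between such copies and their genes cannot be assigned with certainty.

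Calls were few in the other classes. Of 17 nucleotide sugar carriers (Slc35) none was called in any comparison. On the scale of RPM 3 were down in RC4, beside 13.4% of all genes. The lowest were Slc35b2, the carrier of the sulfate donor PAPS, at −0.97 in RC4 and Slc35b1 at −0.93 in RC8. The sodium-potassium-chloride cotransporter Slc12a2, abundant in NT at 273 RPM, had changes of −0.67, −0.21 and −0.62. The sulfate carrier Slc26a2 was at −0.98 in AS. Of the genes that carry the symbol by name only, Slc4a1ap, Slc7a6os and Slc9a3r1, none was called in level.

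Membrane transporters outside the SLC series, that is pumps, ABC transporters, Slco genes and the carrier partners Bsg and Emb, were counted beside them. In RC4, 11 of 51 such genes were up and 2 down, with a median of 0.31, beside 6.38% of all genes in each direction. The 16 subunits of the V-ATPase, the proton pump of lysosomes and endosomes, made up most of it, with 9 up, none down and a median of 1.27. On the scale of RPM 9 of the 51 were up and 4 down, beside 3.69% and 13.4% of all genes. Of the 16 subunits 7 were up on that scale. In RC8 4 of these 16 were up, beside 2.95% of all genes, and in AS none. Of 15 ABC transporters in RC4 none was up and 1 was down. These genes are given by their counts, beside those of the carriers, and no test of the difference was made.

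PAS use was taken from the deposited fraction of a gene's reads at each PAS. Members had 1 PAS in 41.5%, 43.1% and 37.4% of cases in the AS, RC4 and RC8 tables, against 49.4%, 47% and 48.7% of all genes, and the most for a member was 7. Of 296 member PASs in the 3′-most exon 55.4% had AATAAA or ATTAAA in the 40 nt upstream (all genes 52.7%). Of 30 elsewhere in the gene 50% did (all genes 45.8%). A run of A downstream of the PAS, which oligo(dT) can prime from, stood at 3.38% of the former (all genes 7.26%) and at 9 of the latter, or 30% (all genes 16.2%).

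Within the 3′-most exon, the share of the most distal PAS changed by at least 10 percentage points upward in 5 and downward in 5 of 76 members in AS, beside 3.24% and 8.5% of all genes. In RC4 it went up in 4 and down in 13 of 74, beside 5.47% and 16.4%. In RC8 it went up in 8 and down in 11 of 85, beside 9.39% and 10.9%. The median change was −1.1, −4.4 and −1.0 points for the members and −1.7, −2.7 and −0.9 for all genes. In RC4 the distal share was lower than in NT in 57 of 74 members (77%) and in 3022 of 4482 genes over all (67.4%). The count of 13 is a share of members near that of all genes.

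**Figure D4:**
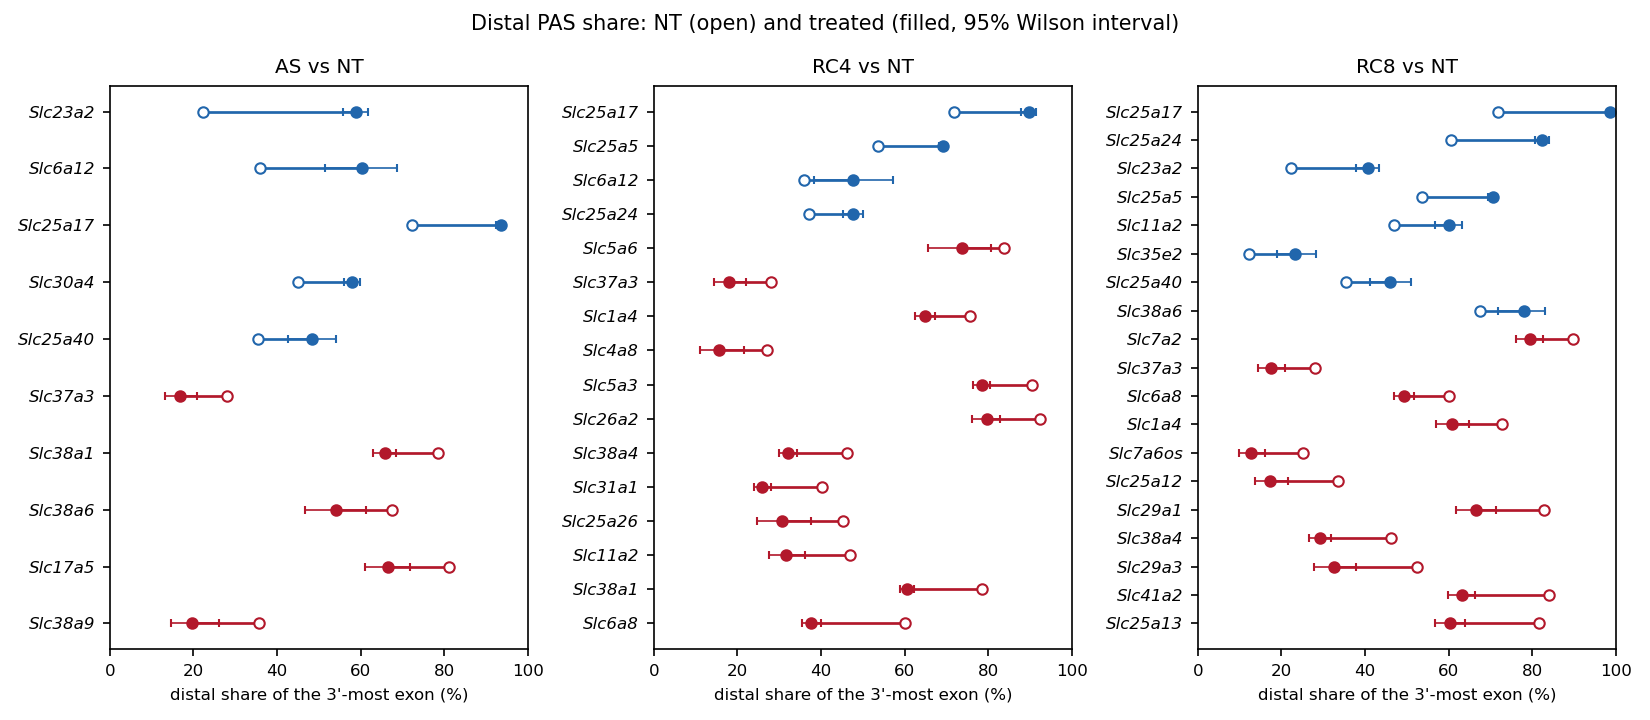
Share of the reads of the 3′-most exon at its most distal PAS (x axis, %) for the named members that changed by at least 10 percentage points, in NT (open) and in AS, RC4 or RC8 (filled, with 95% Wilson intervals); red is a loss and blue a gain. Losses outnumber gains in RC4, and Slc25a17 is a gain in all 3 panels.

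Several carriers with a rise in RC4 also had a lower distal share there, as had 77% of the members and 67.4% of all genes. Slc25a44, also up in RC4, had a higher share there, with 69.4% in NT and 72.9% in RC4. In Slc6a8 it was 60.1% in NT, then 58.8% (AS), 37.7% (RC4) and 49.3% (RC8). In Slc38a1, whose PASs are 4883 nt apart, it was 78.6% in NT, then 65.7% (AS), 60.6% (RC4) and 71.7% (RC8). In Slc1a4 it was 75.7% in NT and 64.8% in RC4, and in the tables of the other comparisons, which list 1 PAS fewer, 72.7% in NT, 65% in AS and 60.9% in RC8, where its level was near NT (0.07). The lowest distal share was in RC4 for Slc6a8 and Slc38a1. Slc30a1, which rose as well, had 68.8% in NT, then 64.2% (AS), 64.4% (RC4) and 68.7% (RC8). Its RC4 change of −4.4 points was like the median change of the members (−4.4). The PASs of Slc38a1 are shown as an example of a distal site with a signal and a proximal one without, and those of Slc6a8 because neither site has a canonical signal. The distal string of Slc38a1 holds ATTAAA more than once, and only the copy nearest the PAS is in capitals.

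Slc38a1 proximal, chr15:96406732-96406761: ctttttagaagaagagaaaataatcttgaa
Slc38a1 distal, chr15:96401849-96401878: ttttcaaacattaaaatgtgaATTAAAgta
Slc6a8 proximal, chrX:70926643-70926672: aaatagatgcctctcctccccaccccacaa
Slc6a8 distal, chrX:70927770-70927799: ctttggggacattcttactgtgctaaaaaa

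Slc41a2 had a distal share of 83.9% in NT, then 77.2% (AS), 74.3% (RC4) and 63.2% (RC8). Slc38a4 had 46.3% in NT, then 40% (AS), 32.0% (RC4) and 29.1% (RC8). Both genes have PASs about as far apart, 2543 and 1946 nt, and their levels differ in direction, since Slc41a2 was up in RC4 and Slc38a4 down in RC8. The lysosomal sialic acid carrier Slc17a5 dropped in AS, from 81.1% to 66.6%, and had 72.6% in RC4 and 80.9% in RC8.

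Among the gains of distal share, Slc25a17, a peroxisomal carrier of cofactors, had a distal share of 72.2% in NT, then 93.6% (AS), 89.7% (RC4) and 98.5% (RC8), with PASs 112 nt apart. Slc23a2, an ascorbate carrier, had 22.2% in NT, then 58.9% (AS), 27.5% (RC4) and 40.6% (RC8), with PASs 100 nt apart. Slc25a5 had 53.7% in NT, then 60.6% (AS), 69.1% (RC4) and 70.5% (RC8), with PASs 192 nt apart. The distal share of all 3 genes was above NT in each treated library. A read of this method lies upstream of the PAS it belongs to, so PASs at such distances are told apart by the model of read positions, and the effect of that was not tested. The strings show that in Slc25a17 and Slc25a5 the distal site has AATAAA and the proximal site none, whereas both sites of Slc23a2 have a signal.

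Slc25a17 proximal, chr15:81149457-81149486: tggtgtttgacataggttttttttaataca
Slc25a17 distal, chr15:81149345-81149374: tcAATAAAttgtcagcacacatacagaaaa
Slc23a2 proximal, chr2:131878332-131878361: ttcATTAAAcgtttaagtattttaaaacta
Slc23a2 distal, chr2:131878232-131878261: tccgtacaAATAAAagctctcctggatgta
Slc25a5 proximal, chrX:34338578-34338607: tataatataccatatcttgaacattctgga
Slc25a5 distal, chrX:34338770-34338799: aaaaaattgaagaAATAAAaatacccaaaa

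The PASs listed for a gene could differ between tables. Slc25a24, a calcium-regulated ATP-Mg and phosphate carrier, had a distal share of 60.1% in NT and 59.8% in AS, and 60.6% in NT and 82.3% in RC8. In the RC4 table the sites lie at other positions and the shares were 37.1% and 47.6%. Slc25a13, the aspartate-glutamate carrier, had 1 PAS in the AS and RC4 tables and 2 in the RC8 table, where the distal share was 81.7% in NT and 60.4% in RC8. The NT reads of a gene also differed by more than 2% between tables in 15 of 147 members. The widest case was Slc4a7, with 693 NT reads in one table and 1102 in another.

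Reads at PASs outside the 3′-most exon, mostly in introns, were 5.21% of member reads in NT and 5.55% in AS. For RC4 they went from 5.63% to 4.73%, and for RC8 the values were 5.10% and 4.31%. For all genes the same share was 8.11% in NT and 8.23% in AS, 8.19% and 9.41% for RC4, and 8.09% and 8.28% for RC8. These are shares of pooled reads, so genes with many reads weigh most. Members listed only with PASs outside the 3′-most exon, such as Slc16a4, were left out of the counts below. The share could be followed in 12, 12 and 11 members. It went up by at least 10 points in 1 of 12 in AS and down in 1, beside 7.64% and 4.36% of all genes. In RC4 it went up in 1 of 12 and down in 1, beside 19.2% and 4.25%. In RC8 it went up in 1 of 11 and down in 2, beside 7.1% and 9.81%.

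Slc38a2, the most abundant amino acid carrier in NT, had reads at an intron and an internal exon site. Its share outside the 3′-most exon was 29.9% in NT and 28.7% in AS, then 30% in NT and 14.6% in RC4, and 20.4% in RC8. The intron site held 20.1% in NT and 8.30% in RC4, and the internal exon site 9.86% and 6.28%. Both sites were thus lower in RC4, while the level of the gene was as in NT (0.03). Neither site has a canonical signal in the 40 nt upstream, and the intron site has a run of A downstream.

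Slc38a2 intron, chr15:96528289-96528318: cagttaatatgataaacatattcttggctc
Slc38a2 internal exon, chr15:96525694-96525723: acagttgggacataaggcgtatggtctggc

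The gain in all 3 comparisons was that of Slc8b1, the mitochondrial sodium/calcium exchanger, at 127 to 195 reads per library. Its share outside the 3′-most exon was 32.6% in NT and 47.2% in AS, 50% in NT and 85.0% in RC4, and 79.9% in RC8. Both intron sites, on the plus strand of chromosome 5, have AATAAA with a run of A downstream.

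Slc8b1 intron, chr5:120963906-120963935: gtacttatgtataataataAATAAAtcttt
Slc8b1 intron, chr5:120968526-120968555: actatgtactcatacataaAATAAAtcttt

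The losses were Slc4a1ap in AS, from 38.5% to 20.7%, and in RC8 Slc35d2, a nucleotide sugar carrier of the Golgi, from 91.7% to 78.2% and the iron importer Slc11a2 from 51.3% to 40.6%. Slc35d2 thus had most of its reads at an intron site in every library. Slc39a10 went from 12.3% to 2.78% in RC8 while its level was 1.94-fold that of NT. Slc6a6 had 22.5% in RC4 and 13.5% in NT at an intron site that was listed in the RC4 table only. In the remaining members, such as Slc25a4 with 17.9% in NT and 18.3%, 19.3% and 17.6% in AS, RC4 and RC8, the share was within 10 points of NT.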

How the data were processed

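NIH3T3 RNA of 4 conditions was measured with 1 QuantSeq FWD library each. The authors trimmed reads with bbmap, mapped them to mm9 with STAR (version 2.5.2a in the submitters' processing notes) and applied MAAPER with PolyA_DB to genes with at least 50 reads. Read counts were deposited for each gene, not normalized, in 2 columns per library that were added here. The tables name their libraries only as condition 1 and 2. Condition 1 was taken as NT, the library common to all comparisons, since its reads agreed within 2% between any pair of tables in 95.9% to 96.1% of genes (condition 2 3.52% to 4.48%). For each PAS the authors gave its fraction of the reads of a gene. Columns of the authors' P values and RLD and RED scores were not used, and QuantSeq REV samples were not used here.

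Log2 ratios were set relative to the median gene, with exact conditional (Clopper-Pearson) 95% intervals. Levels had exact Poisson and shares Wilson intervals. Depth was 22.4 M to 23 M reads on genes, and these intervals of ratios, levels and shares cover counting error only. A gene was called at 2-fold and a PAS share at 10 percentage points. The calculations were tested on simulated data. Other scalings, read minimums, single count columns, thresholds and PAS rules were tried. PAS sequences were read from the mm9 genome with GENCODE vM1 models, promoters from RefSeq (GRCm38.p6). A run of A was 6 in a row, or 7 in 10, within 20 nt downstream.

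Members and lists were chosen with earlier results of these data known. Genes were named by rule: the 12 highest in NT, the 8 highest and 8 lowest changes per comparison at 200 reads or more, the lists, the 4 largest PAS gains and losses of each kind, and symbols by name only. Members called outside this rule were named after their values were seen, and 1 is not reported here. Python 3.11.15 with pandas 2.3.3, numpy 2.4.6 and scipy 1.17.1 was used.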

Additional observations from a re-analysis of the deposited data

Results flagged for a closer look

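The distal share of Slc11a2, the iron importer, moved in opposite directions in the recovery libraries. Compared with NT the changes were 3.89 (AS), −15.1 (RC4) and 13.3 (RC8) percentage points, with 855 to 1592 reads per library. The distal share of Slc38a6 changed by −13.3 points in AS and 10.5 points in RC8, with 130 to 204 reads. The differences between the comparisons were not tested, since each condition has 1 library and all comparisons share NT.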

How the results depend on the processing

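Counts of called members and medians were within 1.5 times the reported value, or for medians within their interval, in 105 of 138 recalculations. The interval of a median came from the spread between the genes and is not one of counting error. No called change of a single gene turned its sign. In RC4 the balance of calls did turn with RPM, to fewer members up than down. Of all genes 3.69% were then up and 13.4% down. The values below had moved. With RPM in place of the median gene, 2 members were down in AS, 8 up and 16 down in RC4, and the RC4 median was −0.35. With at least 200 reads in each library, 1 was up in AS and 1 down in RC4. From count column 1 alone, 1 was up and 3 down in AS and 5 down in RC4. From count column 2 alone, 1 was up and 2 down in AS and 5 down in RC8. Over genes of all 3 tables, 1 was up in AS. At 1.5-fold, 7 were up and 13 down in AS, 21 down in RC4, and 18 up and 19 down in RC8. For PAS shares at 200 reads or more, 3 distal shares were down in AS, and 0 shares outside the 3′-most exon were up in AS, RC4 or RC8. At 20 percentage points, the distal share was up in 3 and down in 0 members in AS, up in 0 and down in 1 in RC4, and up in 2 and down in 2 in RC8, and the share outside the 3′-most exon was up in 0 in AS and down in 0 in AS, RC4 and RC8. With PASs of at least 10%, the share outside the 3′-most exon was down in 0 in RC8. The cause was not tested. Of 905 recalculations for single named genes, 861 gave the same and 44 had moved. No paired analysis was possible because each condition has 1 library and the labels give no replicate numbers. Genes near the minimum of 50 reads are the least precise.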
